A study of Mus musculus with 14 samples.

Results

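The 37 genes described here encode the enzymes, inhibitors, carrier and receptors of sphingolipid and ganglioside metabolism. The rule takes them by symbol and uses no measured value, though they were chosen with earlier results of these data known. All 37 stood among the 24411 gene symbols of the count tables. By role there were 11 genes of de novo ceramide synthesis, 6 of sphingomyelin synthesis and breakdown, 5 of ceramide breakdown and phosphorylation, 7 of sphingosine 1-phosphate (S1P) and 8 of glycosphingolipids and gangliosides. Their RNA was read in 14 libraries of MC-38, a mouse colon cancer line that is WT by its label. The 3 NET cultures were grown with chromatin of neutrophil extracellular traps (NETs, webs of DNA that neutrophils shed), and the 3 control cultures without it. The 8 tumour libraries came from lung tumours, from which GFP-expressing MC-38 cells were flow sorted on day 30, with 2 libraries in each of 4 host groups. These were PAD-4 KO hosts that had a laparotomy (surgical opening of the abdomen) on day 0 and again on day 10, PAD-4 KO hosts without surgery, WT hosts with laparotomy on the same days, and WT hosts without surgery. PAD-4 is an enzyme that citrullinates histones during NET release, and it was missing from the hosts, not from the sorted MC-38 cells. Separate cultures or animals behind the replicates are not stated in the labels, so each p-value reflects the spread between libraries, which may be technical.

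Sphingolipids are built on a long-chain base that serine palmitoyltransferase makes from serine and palmitoyl-CoA, and to which ceramide synthases attach a fatty acid. Ceramide is the hub of the pathway: it is turned into sphingomyelin, or into glucosylceramide and from there into lactosylceramide and the sialic acid-bearing gangliosides of the cell surface, or it is cut to sphingosine. Sphingosine kinases turn sphingosine into S1P, a signal that leaves the cell, acts on S1P receptors and is destroyed by S1P lyase.

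Gene counts summed to 6.39 to 20.6 M per culture library and to 10.8 to 31.3 M per tumour library. Levels are CPM, a count set against the sum of all gene counts of its library, scaled with TMM factors that offset differences in library make-up, within the culture libraries or within the tumour libraries. Of 12 epithelial and colon markers, 11 were under 1 CPM in every control culture and Muc2 reached 1.29 CPM, so markers of colon epithelium were at or near 0 in the control cultures. Cdh17 was at 4.16, 4.04 and 5.05 CPM in NET cultures and at 0 to 0.228 CPM in control cultures. Tumour libraries also held markers of host cells. The 10 lung epithelial markers summed to 104 and 94.97 CPM in the KO laparotomy libraries, 44.4 and 423 CPM in KO control, 16.1 and 25.9 CPM in WT laparotomy and 143 and 805 CPM in WT control. The 10 endothelial markers summed to 115 and 99.0 CPM in KO laparotomy, 60.1 and 335 CPM in KO control, 55.1 and 55.3 CPM in WT laparotomy and 136 and 566 CPM in WT control. Replicate 2 of both control groups thus stood apart from the other tumour libraries. Cultures summed to 14.6 to 17.9 CPM for the lung epithelial markers and 27.4 to 33.3 CPM for the endothelial ones, most of it from Hopx and Egfl7, and Cldn5 and Sftpd were at 0 in all 6. In bulk RNA, fewer cells of a type and less RNA per cell cannot be told apart. The deposited names of the libraries carry an S number, read here as a sample-sheet number, though the labels name no sheet. Numbers 4 and 5 were each carried by a WT laparotomy library and by a library of another group. On that reading the 8 tumour libraries were not all on 1 sheet. Which of them shared a sheet is not given, and a sheet that held the WT laparotomy libraries alone cannot be told apart from surgery in WT hosts.

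The comparison of NET cultures with control cultures asks what NET chromatin does to MC-38 cells without a host. Within the pathway, the largest changes were in the S1P and glycosphingolipid arms. Sphk2, a sphingosine kinase, and S1pr2, an S1P receptor, fell the most, while Ugcg, the glucosylceramide synthase that opens the glycosphingolipid branch, rose 2.0-fold. Ormdl3, an inhibitor of serine palmitoyltransferase, rose 1.63-fold, and Sptlc1, a subunit of that enzyme, fell 1.75-fold. In all, 33 of the 37 genes had enough reads to be tested, and Smpd3, Acer2, S1pr3 and St8sia1 had not.

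Of the 33 tested genes, 5 rose, 12 fell and 16 did not pass (edgeR quasi-likelihood test, Benjamini-Hochberg adjusted p under 0.05 over all 11753 genes tested). Over all tested genes, 26.3% were called higher and 27.8% lower, against 15.2% higher and 36.4% lower of the tested pathway genes. At an unadjusted p under 0.05 the shares were 57.6% of the pathway genes and 59.4% of all genes, so the share that moved was near that of the whole transcriptome. The median log2 fold change was -0.11 over the tested pathway genes and 0.00 over all genes. With library totals in place of TMM, which moved the median of all genes to -0.16, the split was 2 higher and 15 lower: Gltp, Sgpl1 and Smpd4 were not called, and S1pr1, Smpd1 and Sptlc2 were called lower. All 17 calls were kept in the larger strand-specific column. Pan-leukocyte markers moved with the groups as well: the 10 genes summed to 16.8 to 19.5 CPM in NET cultures, with none at 0, and to 4.71 to 4.86 CPM in control cultures, with 2 to 5 at 0. The 10 neutrophil markers summed to 21.3 to 23.6 CPM in NET cultures and 9.25 to 9.53 CPM in control cultures, mostly from Mmp9, with 1 to 3 at 0 in NET cultures and 4 to 7 in control cultures. The 10 monocyte and macrophage markers summed to 143 to 167 CPM in NET cultures and 80.6 to 100.1 CPM in control cultures, mostly from Cd68. Cd68 stood at 127 to 150 CPM in NET cultures and 78.2 to 97.9 CPM in control cultures, while C1qa and C1qc were at 0 in all of them. In NET cultures Adgre1 was at 1.53 to 2.02 CPM, Csf1r at 0.561 to 1.35, Mrc1 at 3.01 to 6.40 and Lyz2 at 8.19 to 9.53. In control cultures Adgre1 and Csf1r were at 0, Mrc1 at 0 to 0.428 CPM and Lyz2 at 1.82 to 2.20 CPM. C1qb, Ms4a7 and Marco were at most 0.122 CPM in any culture. Of the 10 markers, 3 to 5 were at 0 in NET cultures and 5 to 8 in control cultures. The neutrophil marker Mmp8 was at 5.86 to 7.74 CPM in NET cultures and at most 0.076 CPM in control cultures, and S100a9 at 0.978 to 1.43 CPM in NET cultures and 0 in control cultures. The part of these markers in the results below was not tested.

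**Figure D1:**
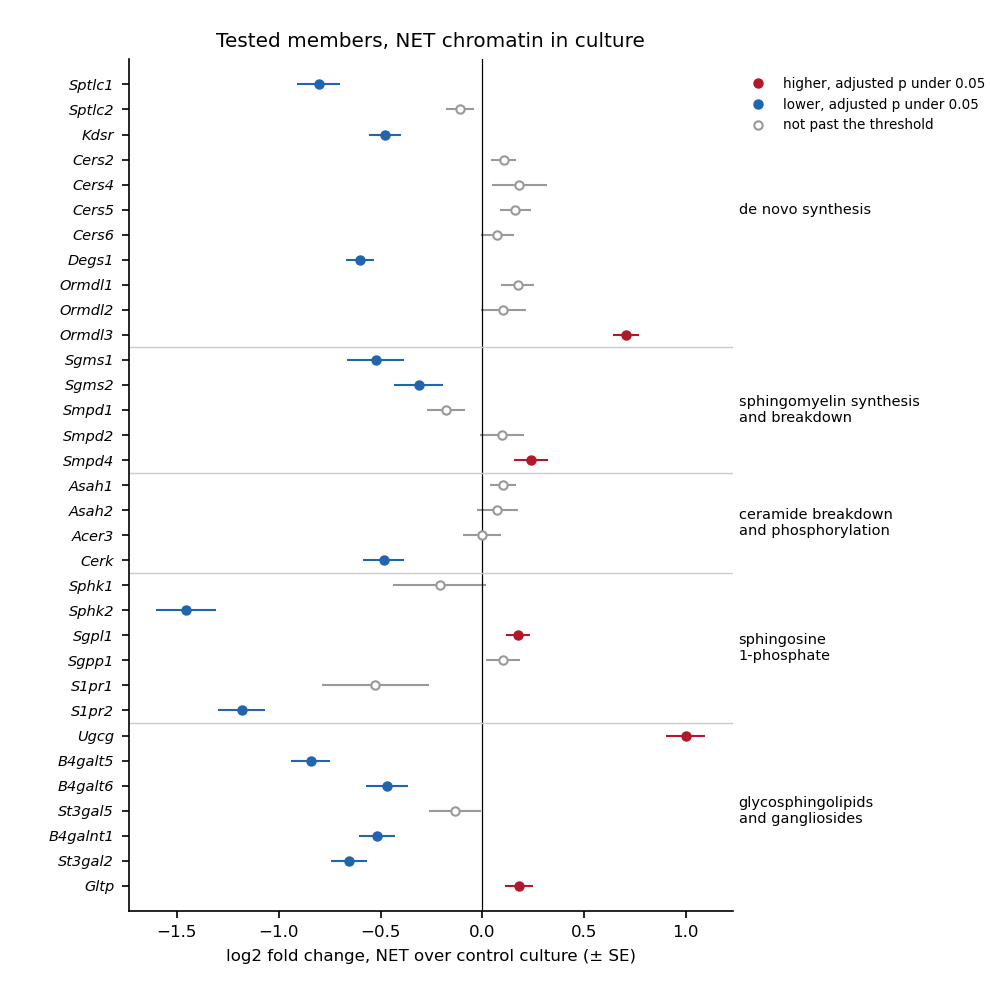
Log2 fold change of NET over control culture with its standard error (horizontal axis) for the 33 tested genes (vertical axis), grouped by role. Filled red points are the 5 genes that rose, filled blue points the 12 that fell, and open points the 16 that did not pass; Sphk2 at -1.45 and Ugcg at 1.00 lie at the ends.

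In de novo synthesis, 1 of 11 genes rose, 3 fell and 7 did not pass. Ormdl3 (chromosome 11, 98581256 to 98587368 in GRCm38) had 179.6, 180.4 and 169.8 CPM in the NET cultures, against 107, 111 and 105 CPM in the control cultures. The groups did not overlap, and every NET culture lay above every control. The log2 fold change was 0.71 ± 0.06 (SE; adjusted p = 1.64e-07). Its relatives Ormdl1 and Ormdl2, which also restrain serine palmitoyltransferase, had log2 fold changes of 0.17 ± 0.08 (adjusted p = 0.0751) and 0.10 ± 0.11 (adjusted p = 0.437). Ormdl2 overlaps Dnajc14 in the annotation and was called higher in the larger strand-specific column.

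Among the enzymes themselves, Sptlc1 (chromosome 13, 53332748 to 53377397) had 18.0, 14.8 and 14.9 CPM in NET cultures, against 29.0, 27.2 and 26.7 CPM in control cultures. All NET cultures were below all controls, with a log2 fold change of -0.80 ± 0.11 (adjusted p = 8.52e-06). Sptlc2, the catalytic subunit that pairs with it, averaged 107 ± 5.01 CPM in NET cultures and 115 ± 6.75 CPM in control cultures (SD, n = 3 each), and the groups overlapped (log2 fold change -0.11 ± 0.07, adjusted p = 0.197). Kdsr, the ketosphinganine reductase of the next step, averaged 44.1 ± 2.71 CPM in NET cultures and 61.6 ± 2.51 CPM in control cultures (-0.48 ± 0.08, adjusted p = 7.33e-05). Degs1, the desaturase that turns dihydroceramide into ceramide, had 111, 95.6 and 101 CPM in NET cultures, against 161, 152 and 154 CPM in control cultures (-0.60 ± 0.07, adjusted p = 1.94e-06). Sptlc1, Kdsr and Degs1 therefore stood lower in every NET culture than in any control. None of the 4 ceramide synthases Cers2, Cers4, Cers5 and Cers6, which differ in the acyl chains they attach, passed the test. Their log2 fold changes were 0.07 to 0.18, and the smallest adjusted p, that of Cers5, was 0.0753.

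In sphingomyelin metabolism, both synthases were lower with NET chromatin. Sgms1, the synthase of the Golgi, had 6.73, 6.40 and 6.47 CPM in NET cultures, against 8.56, 10.0 and 9.43 CPM in control cultures (-0.52 ± 0.14, adjusted p = 0.00481). Sgms2, which works mainly at the plasma membrane, had 38.5, 25.4 and 31.2 CPM in NET cultures, against 43.9, 34.7 and 40.8 CPM in control cultures (-0.31 ± 0.12, adjusted p = 0.0385). The Sgms1 libraries were parted by group, while those of Sgms2 overlapped: NET replicate 1 exceeded control replicate 2. The Sgms2 call was lost without control replicate 1, control replicate 3, NET replicate 2 or NET replicate 3, and over all 6 fits that left out 1 library its log2 fold change was -0.45 to -0.21 (adjusted p up to 0.138). Of the sphingomyelinases, which cut sphingomyelin back to ceramide, Smpd4 rose to 52.2 ± 1.64 CPM in NET cultures, against 44.2 ± 3.93 CPM in control cultures (0.24 ± 0.08, adjusted p = 0.0213). The Smpd4 call was lost without control replicate 1, control replicate 3 or NET replicate 3, with log2 fold changes of 0.19 to 0.31 over the same fits (adjusted p up to 0.112). The acid sphingomyelinase Smpd1 (-0.18 ± 0.09, adjusted p = 0.118) and the neutral one Smpd2 (0.10 ± 0.11, adjusted p = 0.462) did not pass, and Smpd3 was too low to test, at 0.51 ± 0.23 CPM in NET cultures and 0.70 ± 0.34 CPM in control cultures.

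No ceramidase that could be tested passed with NET chromatin. Asah1, the acid ceramidase of the lysosome, averaged 476 ± 29.4 CPM in NET cultures and 444 ± 14.03 CPM in control cultures, with overlapping libraries and a log2 fold change of 0.10 ± 0.06 (adjusted p = 0.198). Neutral ceramidase Asah2 and alkaline ceramidase Acer3 had log2 fold changes of 0.07 ± 0.10 (adjusted p = 0.554) and -0.00 ± 0.09 (adjusted p = 0.988). The Golgi ceramidase Acer2 had 3 counts in the 6 culture libraries together. Cerk, the kinase that phosphorylates ceramide, fell: it had 18.0, 18.3 and 17.02 CPM in NET cultures, against 23.7, 24.0 and 26.2 CPM in control cultures, all NET libraries below all controls (-0.48 ± 0.10, adjusted p = 0.000665).

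The S1P arm held the largest fall. Sphk2 (chromosome 7, 45709467 to 45718002), the sphingosine kinase found largely in the nucleus and on internal membranes, had 6.85, 6.23 and 5.10 CPM in NET cultures, against 14.9, 14.9 and 17.9 CPM in control cultures. All 3 NET cultures lay below all 3 controls. The log2 fold change was -1.45 ± 0.15 (adjusted p = 5.64e-07). Sphk2 overlaps Dbp and Rpl18 in the annotation, and unstranded reads shared by overlapping genes are left out as ambiguous. In the strand-specific column the log2 fold change was -1.48 (adjusted p = 6.17e-07). The other kinase, Sphk1, was low and did not pass, at 2.98 ± 0.58 CPM in NET cultures and 3.496 ± 0.860 CPM in control cultures (-0.21 ± 0.23, adjusted p = 0.457).

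Among the S1P receptors, S1pr2 (chromosome 9, 20962361 to 20976781) had 16.0, 10.9 and 13.9 CPM in NET cultures, against 29.9, 30.8 and 33.3 CPM in control cultures. Every NET library lay below every control library, with a log2 fold change of -1.18 ± 0.12 (adjusted p = 4.16e-07). S1pr1 stood at 2.69, 1.0 and 2.55 CPM in NET cultures, against 2.78, 3.92 and 3.04 CPM in control cultures (-0.53 ± 0.26, adjusted p = 0.0981), and S1pr3 had 6 counts over the NET cultures and 4 over the control cultures. Of the genes that clear S1P, the lyase Sgpl1, which cleaves it irreversibly, had 525, 561 and 518 CPM in NET cultures, against 473, 475 and 472 CPM in control cultures. That is a small rise with no overlap (0.17 ± 0.06, adjusted p = 0.0216), and its call was lost without control replicate 1, control replicate 3 or NET replicate 2 (log2 fold change 0.14 to 0.20 over the 6 fits, adjusted p up to 0.0698). The S1P phosphatase Sgpp1 did not pass (0.10 ± 0.08, adjusted p = 0.322).

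The start regions of Sphk2 and S1pr2, the 2 genes with the largest falls, are shown because both hold the full palindrome of the cAMP response element. They are RefSeq promoter windows of GRCm38.p6, from 250 bases before the annotated start to 25 bases past it, read 5′ to 3′ on the minus strand at chr7:45717978-45718252 (1 of 2 windows listed for Sphk2) and chr9:20976769-20977043. Capitals mark TGACGTCA (cAMP response element) and GGGCGG (GC box).
Sphk2: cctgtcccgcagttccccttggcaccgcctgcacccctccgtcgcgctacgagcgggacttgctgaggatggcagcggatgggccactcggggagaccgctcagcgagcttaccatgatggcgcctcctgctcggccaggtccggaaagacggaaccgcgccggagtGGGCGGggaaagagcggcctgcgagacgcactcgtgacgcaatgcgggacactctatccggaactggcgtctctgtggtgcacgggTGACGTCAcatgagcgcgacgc
S1pr2: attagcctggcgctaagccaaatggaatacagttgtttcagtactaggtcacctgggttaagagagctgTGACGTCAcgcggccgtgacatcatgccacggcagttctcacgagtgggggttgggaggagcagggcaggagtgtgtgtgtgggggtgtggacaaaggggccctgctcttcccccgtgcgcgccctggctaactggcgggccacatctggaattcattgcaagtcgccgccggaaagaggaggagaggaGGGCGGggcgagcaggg

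Windows of 300 bases were found for 31 of the 37 genes and searched on both strands for 6 textbook motifs that were chosen with these sequences in view. TGACGTCA stood in 3 of the 31 windows, those of Sphk2, S1pr2 and Ormdl3, and in 1.80% of 32544 distinct windows of all genes. Of these 3 genes 2 fell and 1 rose with NET chromatin. GGGCGG or its complement stood in 23 windows (35.9% of all), CCAAT in 13 (37.4%), CACGTG, the E-box, in 4 (7.17%), TGANTCA, the AP-1 site, in 2 (7.79%) and TATAAA, the TATA box, in 1 (13.6%). A match is a run of letters in a window, not a bound site.

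The glycosphingolipid branch moved in opposite directions at its first steps. Ugcg (chromosome 4, 59189257 to 59222833) had 71.2, 92.9 and 73.3 CPM in NET cultures, against 41.4, 38.0 and 38.3 CPM in control cultures. The lowest NET culture stood well above the highest control, and the log2 fold change was 1.00 ± 0.10 (adjusted p = 2.97e-07). B4galt5 and B4galt6, the enzymes that add galactose to glucosylceramide to give lactosylceramide, both fell. B4galt5 (chromosome 2, 167298444 to 167349183) had 44.4, 31.5 and 40.3 CPM in NET cultures, against 66.9, 73.9 and 70.1 CPM in control cultures (-0.84 ± 0.10, adjusted p = 1.86e-06). B4galt6 averaged 18.8 ± 1.94 CPM in NET cultures and 26.3 ± 0.98 CPM in control cultures (-0.47 ± 0.10, adjusted p = 0.00109). In both genes every NET library was below every control.

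Further along, St3gal5, which adds sialic acid to lactosylceramide to make GM3, the root of most gangliosides, did not pass: it had 17.1, 12.0 and 15.2 CPM in NET cultures, against 14.9, 17.5 and 16.8 CPM in control cultures (-0.13 ± 0.13, adjusted p = 0.384). B4galnt1 and St3gal2, which extend gangliosides, fell. B4galnt1, the synthase of GM2 and GD2, had 30.0, 27.1 and 31.0 CPM in NET cultures, against 39.7, 43.7 and 43.7 CPM in control cultures (-0.52 ± 0.09, adjusted p = 0.000106). B4galnt1 overlaps Slc26a10 in the annotation, and its log2 fold change in the strand-specific column was -0.57. St3gal2, a sialyltransferase of complex gangliosides, had 34.0, 27.1 and 30.6 CPM in NET cultures, against 46.4, 49.1 and 49.7 CPM in control cultures (-0.66 ± 0.09, adjusted p = 1.19e-05). No library of either group crossed into the other for these 2 genes. St8sia1, the GD3 synthase, had 0 counts in the 6 cultures, which hold 68.9 M gene counts, so a level of up to 0.0435 CPM is allowed by counting error. Gltp, a carrier of glycolipids between membranes, rose to 141 ± 9.28 CPM in NET cultures, against 124 ± 5.27 CPM in control cultures (0.18 ± 0.07, adjusted p = 0.0320). The Gltp call was lost without control replicate 1, control replicate 3, NET replicate 2 or NET replicate 3 (log2 fold change 0.15 to 0.23 over the 6 fits, adjusted p up to 0.124), and with DESeq2.

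**Figure D2:**
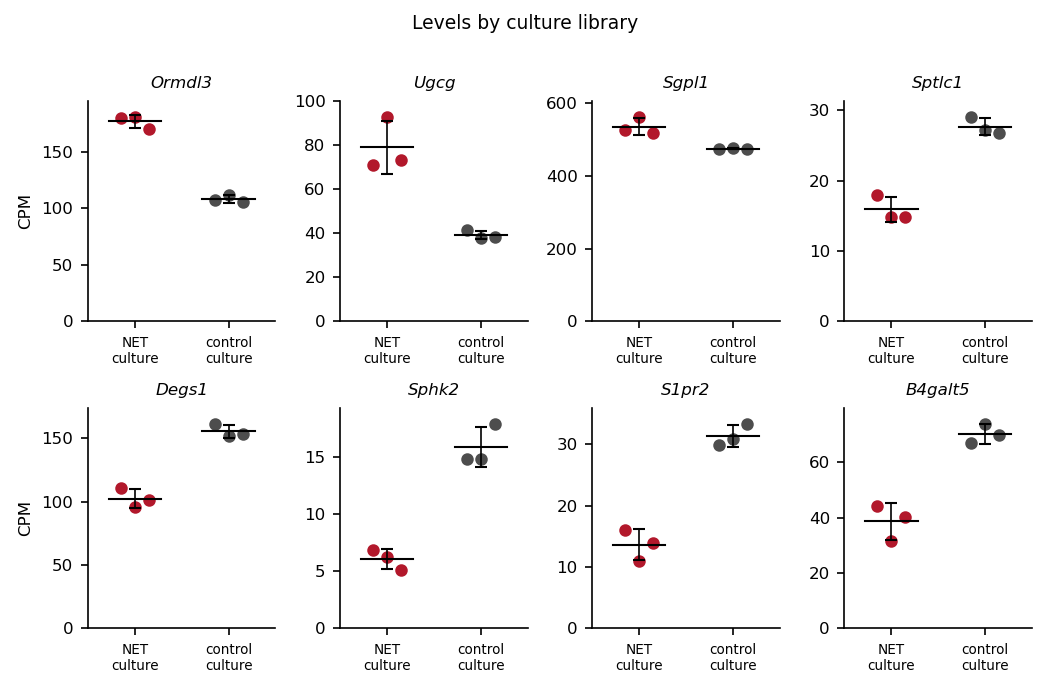
TMM-scaled CPM (vertical axes, from 0) of 8 genes in the NET and control cultures; points are libraries, long bars means and whiskers SDs (n = 3 each). NET cultures lie above all controls for Ormdl3, Ugcg and Sgpl1 and below all controls for Sptlc1, Degs1, Sphk2, S1pr2 and B4galt5.

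Set against each other per kilobase of exon, the most abundant transcripts of the pathway in NET cultures were Asah1 at 140.4 ± 8.68 CPM per kb, Sgpl1 at 87.0 ± 3.73, Cers2 at 84.8 ± 1.15, Ormdl3 at 80.9 ± 2.70, Gltp at 79.9 ± 5.27 and Degs1 at 39.5 ± 2.97. Sgpl1 and Cers2, and likewise Ormdl3 and Gltp, did not differ beyond their spread. In control cultures the order was Asah1 at 131 ± 4.14 CPM per kb, Cers2 at 78.8 ± 3.45, Sgpl1 at 77.1 ± 0.21, Gltp at 70.4 ± 2.99, Degs1 at 60.0 ± 1.99 and Ormdl3 at 49.4 ± 1.46. Ormdl3 thus held rank 4 of the 37 genes per length in NET cultures and rank 6 in control cultures.

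Outside the 37 genes, 56 further genes of the same metabolism were listed, of which 35 could be tested in culture. With NET chromatin 7 rose, 11 fell and 17 did not pass, and the median log2 fold change was -0.05. The shares were 20% higher and 31.4% lower, against the 26.3% and 27.8% of all genes. The 8 that the naming rule took began with Ppap2a, the gene now called Plpp1, a lipid phosphatase of the cell surface that dephosphorylates S1P among other lipids. It averaged 15.3 ± 1.74 CPM in NET cultures and 45.3 ± 3.10 CPM in control cultures (-1.54 ± 0.10, adjusted p = 7.54e-09). Its relative Ppap2b, now Plpp3, fell as well (-0.72 ± 0.14, adjusted p = 0.000411), as did Gba2, a non-lysosomal glucosylceramidase (-0.74 ± 0.17, adjusted p = 0.00131), and St6galnac4, a sialyltransferase (-0.71 ± 0.10, adjusted p = 2.08e-05). Psap, the precursor of the saposins that help lysosomal enzymes reach sphingolipids, rose to 2223 ± 54.6 CPM in NET cultures, against 1440 ± 76.2 CPM in control cultures (0.63 ± 0.06, adjusted p = 6.34e-07). Sptssa, a small subunit of serine palmitoyltransferase, rose (0.44 ± 0.09, adjusted p = 0.000756) where Sptlc1 fell. Nans, of sialic acid synthesis, and Samd8, a relative of the sphingomyelin synthases, had log2 fold changes of 0.38 ± 0.07 (adjusted p = 0.000160) and 0.35 ± 0.07 (adjusted p = 0.000523). By list, 2 of 8 tested synthesis and transport genes rose and 3 fell, 3 of 14 lysosomal genes rose and 2 fell, 2 of 7 ganglioside genes rose and 4 fell, and of 6 S1P genes none rose and 2 fell. Those shares were 25% and 37.5% of the synthesis and transport genes, 21.4% and 14.3% of the lysosomal genes, 28.6% and 57.1% of the ganglioside genes and 0% and 33.3% of the S1P genes.

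The tumour libraries ask how surgery on the host, and the host's PAD-4, bear on MC-38 cells growing in the lung. All 37 genes were tested among 14615 genes, with 2 libraries a group and 1 estimate of the spread over all 4 groups. The 5 comparisons share libraries with each other, and their values are given side by side. A single gene passed in any of them: St3gal5, the GM3 synthase, which fell with laparotomy in KO hosts.

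St3gal5 (chromosome 6, 72097592 to 72154571) had 7.66 and 6.61 CPM in the KO laparotomy libraries and 32.3 and 28.1 CPM in KO control, and 22.5 and 15.2 CPM in WT laparotomy and 16.8 and 15.3 CPM in WT control. Both KO laparotomy libraries were below the other 6 tumour libraries, and both KO control libraries above them; the WT groups overlapped. The log2 fold change with laparotomy was -2.08 ± 0.23 in KO hosts (adjusted p = 0.0211), where 0.342% of all genes were called higher and 0.178% lower, and 0.23 ± 0.22 in WT hosts (adjusted p = 0.637). The difference between the laparotomy effects, KO minus WT, was itself tested and was -2.31 ± 0.32 (adjusted p = 0.0277), with 0.411% of all genes called higher and 0.267% lower. Between hosts, the log2 fold change was 0.91 ± 0.22 for KO over WT control (adjusted p = 0.148) and -1.40 ± 0.23 for KO over WT laparotomy (adjusted p = 0.0906), neither past the threshold. St3gal5 rests on 212 counts in KO laparotomy and 1595 in KO control.

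The St3gal5 calls depended on single libraries. Laparotomy in KO hosts gave -1.97 (adjusted p = 0.165) without KO control replicate 1 and -2.00 (adjusted p = 0.0744) without KO laparotomy replicate 2. The difference between hosts was -2.57 to -2.00 over the 8 fits. It lost its call without WT laparotomy replicate 1 (-2.00) or replicate 2 (-2.57) and without KO control replicate 1 (-2.21). The same held without KO laparotomy replicate 1 (-2.43) or replicate 2 (-2.23). Without KO control replicate 2, the library of KO hosts that stood apart, laparotomy in KO hosts gave -2.18 and the difference was -2.41. Without WT control replicate 2 the difference was -2.24. KO over WT laparotomy passed only without WT control replicate 2, among the fits that left out 1 library (-1.40). The lung epithelial and endothelial sums of the KO laparotomy libraries lay between those of the KO control libraries. The 10 pan-leukocyte markers, none of them at 0, summed to 194 and 155 CPM in KO laparotomy and 284 and 279 CPM in KO control. That gap lay in Arhgdib, at 58.4 and 63.1 CPM in KO laparotomy and 186 and 118 CPM in KO control, and the other 9 markers overlapped, at 136 and 91.9 CPM in KO laparotomy and 97.5 and 161 CPM in KO control. The 10 neutrophil markers summed to 236 and 149 CPM in KO laparotomy and 419 and 345 CPM in KO control, most of it from Mmp9, with Elane at 0 in these 4 libraries. The 10 monocyte and macrophage markers overlapped, at 434 and 260 CPM in KO laparotomy and 106 and 283 CPM in KO control. The 10 fibroblast and mural markers overlapped as well, at 1391 and 3049 CPM in KO laparotomy and 1550 and 1005 CPM in KO control. In cultures the fibroblast and mural markers summed to 115 to 166 CPM. The part of Arhgdib, Mmp9 or host cells in St3gal5 was not tested.

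The start region of St3gal5 is shown as that of the gene with the tumour call: the RefSeq window of GRCm38.p6 on the plus strand at chr6:72097358-72097616, cut 25 bases after the first annotated start. Capitals mark GGGCGG or its complement CCGCCC (GC box) and ATTGG (the CCAAT box read from the other strand).
St3gal5: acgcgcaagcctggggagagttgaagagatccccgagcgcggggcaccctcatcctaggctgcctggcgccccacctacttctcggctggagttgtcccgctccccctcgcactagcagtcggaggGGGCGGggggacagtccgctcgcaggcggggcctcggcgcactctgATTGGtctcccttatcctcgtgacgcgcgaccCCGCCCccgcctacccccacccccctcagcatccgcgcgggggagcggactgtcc

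**Figure D3:**
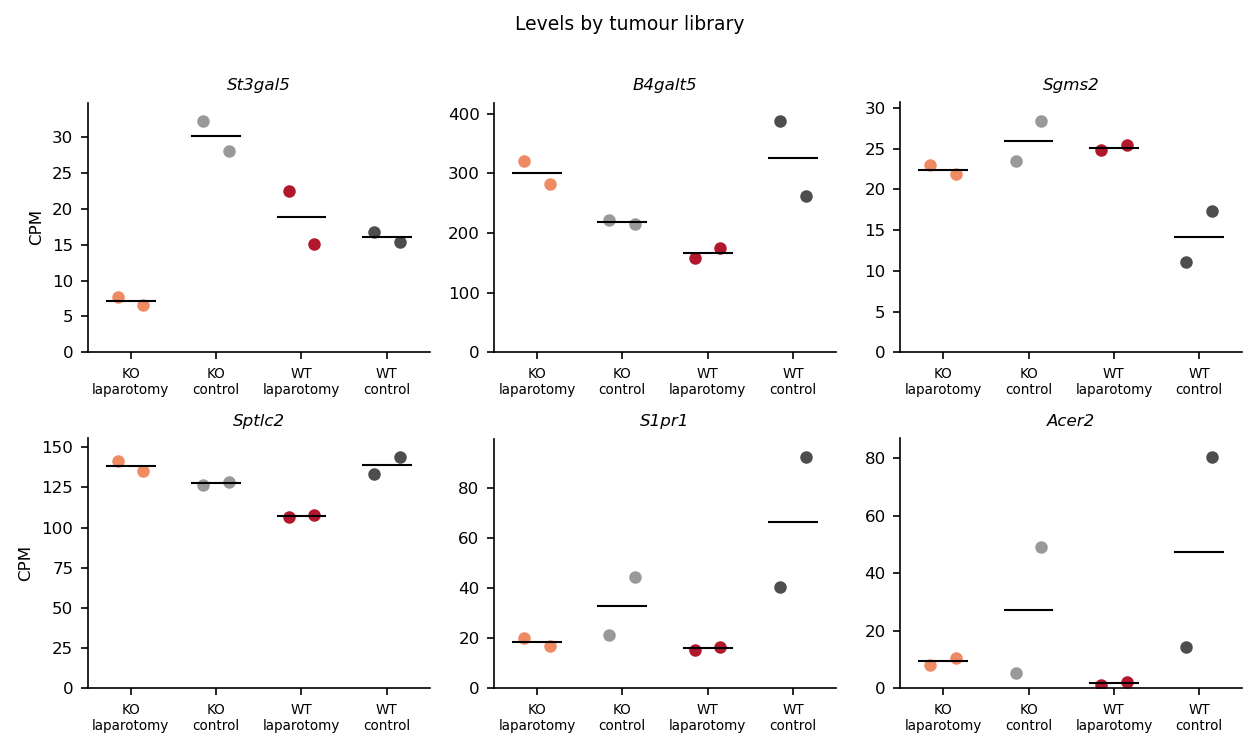
TMM-scaled CPM (vertical axes, from 0) of 6 genes in the 8 tumour libraries; points are libraries and bars the means of 2. St3gal5 is lowest in the 2 KO laparotomy libraries and highest in the 2 KO control libraries, B4galt5 is lowest in WT laparotomy, and S1pr1 and Acer2 are highest in replicate 2 of WT control.

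Cerk, Ormdl3, Asah1 and B4galt5 were the other genes with an unadjusted p under 0.05 for laparotomy in KO hosts, all on the positive side, and none passed adjustment (13.5% of the 37 genes, against 15.7% of all genes). Ormdl3 had 75.9 and 78.8 CPM in KO laparotomy, against 64.8 and 56.4 CPM in KO control (0.35 ± 0.11, adjusted p = 0.195). Cerk had 35.3 and 41.2 CPM in KO laparotomy, against 29.2 and 25.8 CPM in KO control (0.47 ± 0.19, adjusted p = 0.268). Asah1 had 304 and 257 CPM in KO laparotomy, against 215 and 242 CPM in KO control (0.30 ± 0.12, adjusted p = 0.297).

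For laparotomy in WT hosts no gene of the 37 passed with edgeR, where 0.0205% of all genes were called higher and 0.0342% lower. At an unadjusted p under 0.05 there were 9 (24.3% of the 37 genes, against 18.8% of all genes). DESeq2 called 1 higher, Sgms2, and 7 lower, Acer2, B4galnt1, B4galt5, S1pr1, S1pr3, Sgms1 and Sptlc2. Over all genes DESeq2 called 1220 in this comparison, where edgeR called 8. B4galt5, the lactosylceramide synthase, had 320.0 and 281 CPM in KO laparotomy, against 222 and 215 CPM in KO control. In WT hosts it ran the other way, with 159 and 176 CPM in WT laparotomy and 388 and 263 CPM in WT control. The log2 fold change with laparotomy was 0.46 ± 0.18 in KO hosts (adjusted p = 0.257) and -0.96 ± 0.18 in WT hosts (adjusted p = 0.0969), and their difference, KO minus WT, was 1.42 ± 0.25 (adjusted p = 0.0545). With WT control replicate 1 left out, the WT value was -0.65 and the difference 1.10. With WT control replicate 2 left out they were -1.21 and 1.67. Each of these fits keeps 1 library in WT control. Without a filter on low counts the WT value passed (adjusted p = 0.0156, among 166 genes called). The difference passed there too (adjusted p = 0.00675, among 399 genes called).

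The 2 sphingomyelin synthases stood on opposite sides in WT hosts. Sgms2 had 24.8 and 25.4 CPM in WT laparotomy, against 11.1 and 17.3 CPM in WT control (0.81 ± 0.22, adjusted p = 0.150). Sgms1 had 10.3 and 11.5 CPM in WT laparotomy, against 15.5 and 34.0 CPM in WT control (-1.19 ± 0.33, adjusted p = 0.151). Sptlc2 had 107 and 108 CPM in WT laparotomy, against 133 and 144 CPM in WT control, a small but even separation (-0.37 ± 0.09, adjusted p = 0.141). Degs1 lay on the positive side, with 263 and 239.8 CPM in WT laparotomy, against 205 and 174 CPM in WT control (0.41 ± 0.17, adjusted p = 0.253).

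S1pr1, S1pr3 and Acer2 had lower levels in both WT laparotomy libraries than in both WT control libraries. S1pr1, a receptor known for its role in vessels and lymphocytes, had 15.5 and 16.5 CPM in WT laparotomy, against 40.5 and 92.4 CPM in WT control (-2.06 ± 0.46, adjusted p = 0.135). Acer2 had 1.26 and 2.24 CPM in WT laparotomy, against 14.4 and 80.3 CPM in WT control (-4.75 ± 1.35, adjusted p = 0.172). S1pr3 had 1.09 and 0.76 CPM in WT laparotomy, against 3.47 and 7.09 CPM in WT control (-2.52 ± 0.77, adjusted p = 0.166). These 3 genes were highest in WT control replicate 2, the library with the highest lung epithelial and endothelial sums, and S1pr1 and Acer2 were lowest in the 2 WT laparotomy libraries, where those sums were lowest. In KO hosts S1pr1 and Acer2 were likewise highest in KO control replicate 2, at 44.5 and 49.1 CPM. The 10 pan-leukocyte markers summed to 147 and 99.8 CPM in WT laparotomy and 169 and 1110.3 CPM in WT control. The 10 T, NK and B cell markers summed to 14.9 and 16.3 CPM in WT laparotomy and 19.7 and 163 CPM in WT control. For the 10 monocyte and macrophage markers the sums were 102 and 90.7 CPM in WT laparotomy and 324 and 1316 CPM in WT control. The part of host cells in these values was not tested. A fit without either WT control library rests on 1 library of that group, so its calls are not given for these genes.

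**Figure D4:**
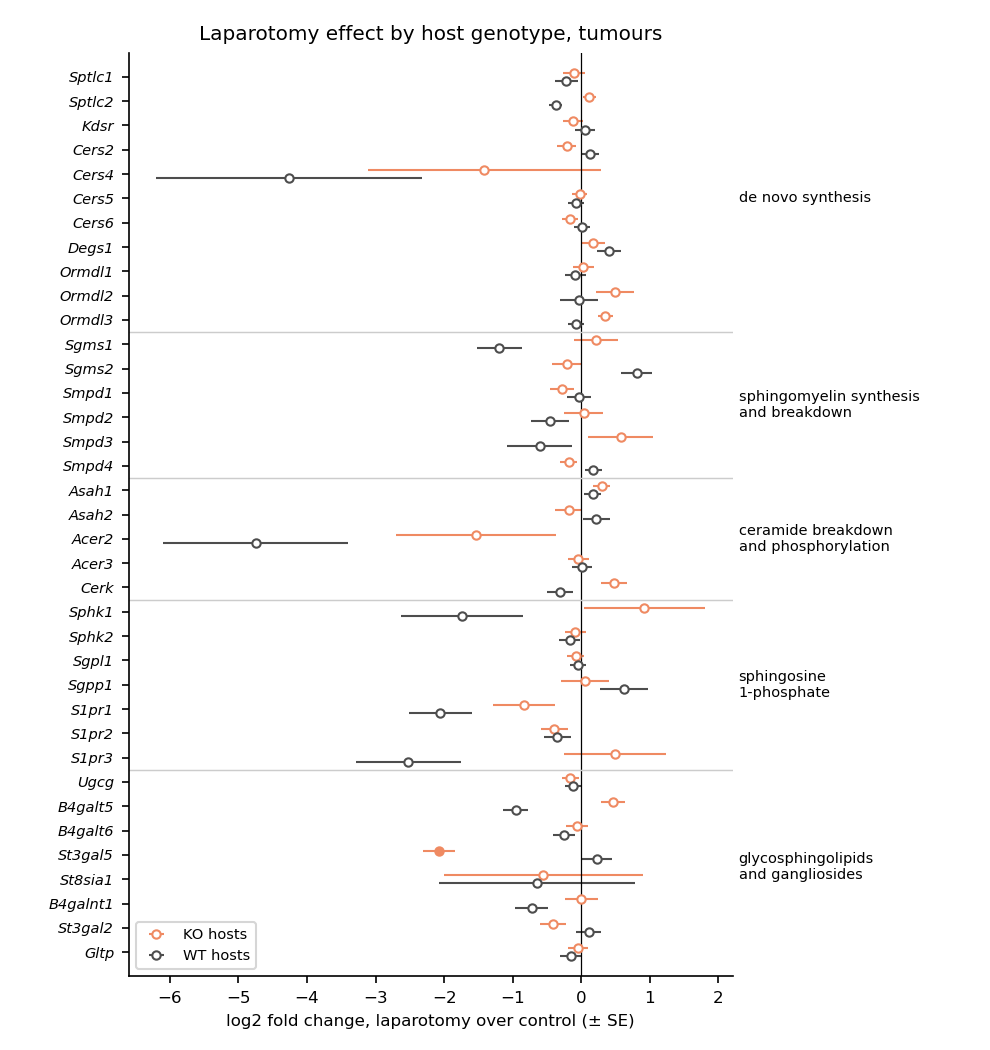
Log2 fold change of laparotomy over control with its standard error (horizontal axis) for the 37 genes (vertical axis) in KO hosts (orange) and WT hosts (grey); filled points have an adjusted p under 0.05. The single filled point is St3gal5 in KO hosts at -2.08, and Cers4, St8sia1 and Acer2 carry the widest errors in WT hosts.

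Between hosts without surgery, KO control against WT control, no gene of the 37 passed with edgeR, where 0.0547% of all genes were called higher and 0.0616% lower. Unadjusted p-values under 0.05 were found for 6 (16.2%, against 16.3% of all genes), namely St3gal5 and Sgms2 on the higher side and Cerk, B4galt5, Ugcg and S1pr3 on the lower. DESeq2 called St3gal5, Sgms2 and B4galt5 of these, among 782 genes in all. Sgms2 had 23.5 and 28.4 CPM in KO control, against 11.1 and 17.3 CPM in WT control (0.86 ± 0.22, adjusted p = 0.162). Ugcg had 67.0 and 57.3 CPM in KO control, against 79.5 and 78.9 CPM in WT control (-0.35 ± 0.12, adjusted p = 0.229). Between hosts with surgery, KO laparotomy against WT laparotomy, no gene passed either, with 0.0205% of all genes called higher and 0% lower, and 7 of the 37 had an unadjusted p under 0.05 (18.9%, against 13.4% of all genes). DESeq2 called B4galt5 higher and St3gal5 lower there, among 534 genes in all. Ugcg had 55.8 and 55.2 CPM in KO laparotomy, against 77.8 and 68.0 CPM in WT laparotomy (-0.39 ± 0.12, adjusted p = 0.242), and Sptlc2 had 141 and 135 CPM in KO laparotomy, against 107 and 108 CPM in WT laparotomy (0.36 ± 0.09, adjusted p = 0.183). None of the 47 further pathway genes tested in tumours passed in any of the 5 tumour comparisons (edgeR). An unadjusted p under 0.05 was found in 5 to 14 of them. For laparotomy the shares were 21.3% in WT hosts (18.8% of all genes) and 19.1% in KO hosts (15.7% of all genes). For the difference of these effects the share was 23.4% (19.2% of all genes). It was 29.8% for KO against WT control (16.3% of all genes) and 10.6% for KO against WT laparotomy (13.4% of all genes).

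Tumour and culture libraries were also laid side by side, with 1 TMM scaling over all 14 and no test, since the lung, the sort, host RNA and library preparation all go with the tumour label and cannot be told apart. Of the 37 genes, 12 were higher in all 8 tumour libraries than in all 6 cultures, 11 were lower and 14 overlapped. Over all 14421 genes passing the filter the shares were 26.1% above and 23.3% below. B4galt5 ran from 155 to 382 CPM in tumour libraries and from 31.8 to 76.2 CPM in cultures. Sphk2 ran from 26.1 to 35.2 CPM in tumour libraries and from 5.43 to 18.3 CPM in cultures, and S1pr2 from 36.7 to 74.5 CPM in tumour libraries and from 11.04 to 34.0 CPM in cultures. For these genes the tumour libraries stood above both culture groups, NET and control. S1pr1 reached 15.1 to 89.6 CPM in tumour libraries and 1.02 to 4.04 CPM in cultures, and Acer2 had 4412 counts in tumour libraries and 3 counts in cultures. St8sia1, at 0 in culture, had 152 counts over the 8 tumour libraries and 0 in WT control replicate 1. The other genes above culture were Sptlc1, Degs1, Smpd3, S1pr3, B4galt6, B4galnt1 and St3gal2.

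The genes below culture included enzymes of breakdown, namely Sgpl1, Asah1, Asah2, Smpd1 and Smpd2. Other enzymes of breakdown did not lie below: the ceramidase Acer2 and the sphingomyelinase Smpd3 were above culture. Acer3, Smpd4 and the S1P phosphatase Sgpp1 overlapped. Sgpl1 ran from 192 to 231 CPM in tumour libraries and from 482 to 566 CPM in cultures. Asah1 ran from 207 to 299.9 CPM in tumour libraries and from 442 to 514 CPM in cultures, and Smpd2 from 5.90 to 10.4 CPM in tumour libraries and from 23.8 to 32.8 CPM in cultures. Ormdl3 ran from 55.6 to 77.5 CPM in tumour libraries and from 107 to 184 CPM in cultures, so that it lay below the control cultures as well as the NET cultures. Cers4, a ceramide synthase of long acyl chains, ran from 0 to 4.89 CPM in tumour libraries and from 10.3 to 14.6 CPM in cultures, and its 2 highest tumour values, 5.04 and 4.26 CPM by the tumour scaling, were in replicate 2 of WT control and of KO control. Cers2, Cers6, Ormdl2 and Gltp were the others below. Ugcg, one of the genes called in culture, and St3gal5, the only gene called in tumours, overlapped between the 2 settings. Ugcg ran from 54.3 to 78.4 CPM in tumour libraries and from 39.1 to 93.7 CPM in cultures. St3gal5 ran from 6.501 to 31.2 CPM in tumour libraries and from 12.1 to 18.0 CPM in cultures.

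**Figure D5:**
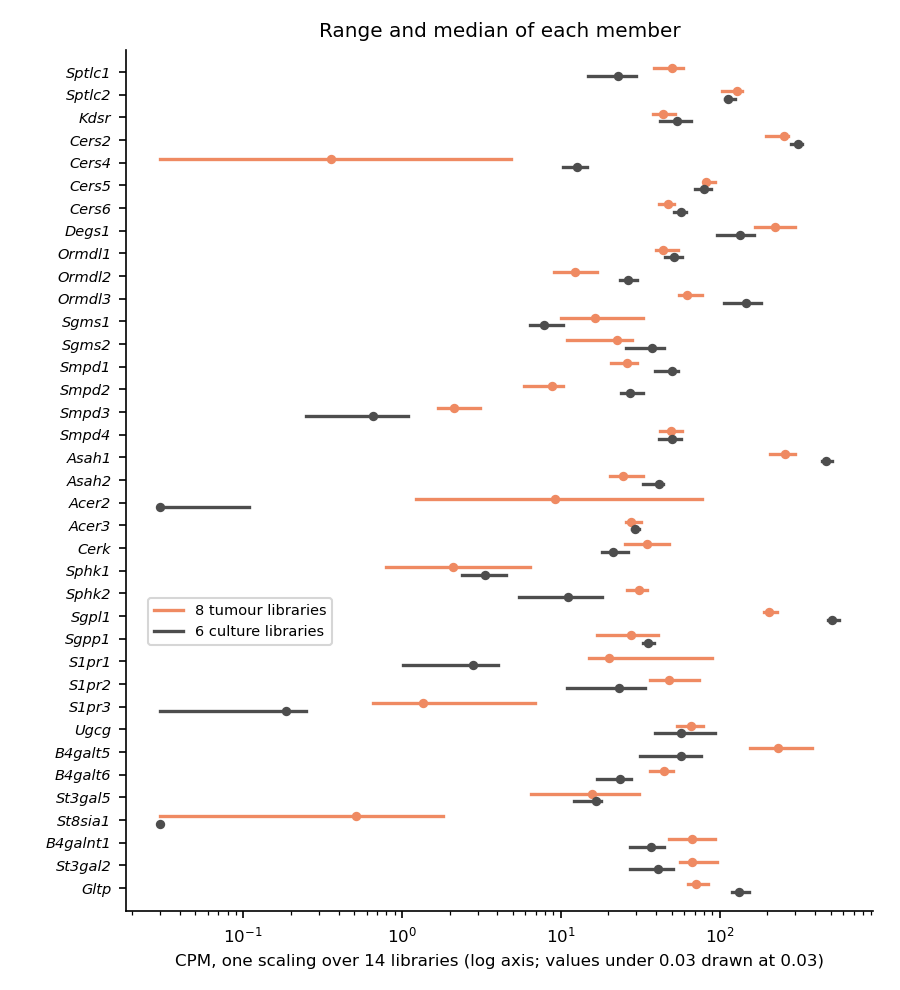
Range (line) and median (point) of CPM under 1 scaling over 14 libraries (horizontal log axis, values under 0.03 drawn at 0.03) for each of the 37 genes (vertical axis) in the 8 tumour libraries (orange) and the 6 culture libraries (grey). B4galt5, Sphk2, S1pr1 and Acer2 lie above culture without overlap, and Sgpl1, Asah1, Ormdl3 and Smpd2 below.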

How the data were processed

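RNA of 6 culture and 8 tumour libraries of MC-38 was sequenced after TRIzol extraction, per the labels' protocols. Trimmomatic, STAR and mm10 are named in the submitters' processing notes; versions, options and gene annotation: not given in the sources used here. The authors deposited raw read counts per gene symbol, for each library in an unstranded and 2 strand-specific columns. The unstranded column was used, where reads shared by overlapping genes on opposite strands are counted as ambiguous. Lines for unmapped (4.00 to 11.5% of the reads in the table), multimapping (6.14 to 9.25%), no-feature (12.1 to 24.0%) and ambiguous reads (1.11 to 1.51%) stayed out of library sizes and tests.

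Genes were kept by edgeR's filterByExpr (minimum count 10), scaled by TMM and tested with the quasi-likelihood test of edgeR 4.0.16 in R 4.3.3, on the 6 culture libraries and, separately, the 8 tumour libraries, with Benjamini-Hochberg adjustment over all genes tested and a threshold of 0.05. Levels are CPM, with SD over libraries. Standard errors of log2 fold changes come from the quasi-likelihood test and include the spread between libraries. The limit given for 0 counts covers counting error only. DESeq2 1.42.0, other scalings, no filter, the larger strand-specific column, a replicate block, the compared groups alone and leaving out each library were the alternatives. The fits were tested on simulated data.

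All 37 genes may be named. Of the further pathway genes, those named are the 4 largest called changes in each direction among genes averaging 5 CPM or more. Members and lists were chosen with earlier results of these data known. Replicate numbers were not treated as pairs: same-numbered culture libraries correlated by -0.03 to 0.09 in their deviations from the group means, and tumour groups have 2 numbers each. Replicate libraries differed by more than sampling noise (chi-square per degree of freedom 2.84 to 50.4). Promoter sequences and motifs were read from RefSeq windows of GRCm38.p6, and gene positions from GENCODE M21.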

Additional observations from a re-analysis of the deposited data

Results flagged for a closer look

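The effect of laparotomy on St3gal5, the GM3 synthase, differed between PAD-4 KO and WT hosts by the test of the difference itself: KO minus WT was -2.31 ± 0.32 on the log2 scale (edgeR interaction term, adjusted p = 0.0277), with -2.08 in KO hosts and 0.23 in WT hosts and 2 libraries a group. Arhgdib, at 58.4 and 63.1 CPM in KO laparotomy and 186 and 118 CPM in KO control, was lower there too, while the other 9 pan-leukocyte markers overlapped; their part in the difference was not tested.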

How the results depend on the processing

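No gene called in a reported fit was called in the opposite direction under an alternative. The median log2 fold change over the 37 genes changed sign in some tumour fits leaving out 1 library, except for laparotomy in WT hosts. It was -0.06 for laparotomy in KO hosts (-0.16 to 0.03 in those fits) and 0.11 for the difference (-0.01 to 0.18). For KO against WT it was -0.10 in control (-0.16 to 0.04) and 0.04 in laparotomy (-0.03 to 0.06). For NET against control culture, the 5 higher and 12 lower genes became 2 higher with library totals. Leaving out 1 library gave 2 to 6 higher and 11 to 12 lower there. Ugcg, Ormdl3 and 11 of the 12 lower genes were called under every alternative. For laparotomy in WT hosts, edgeR's 0 calls became 1 higher and 7 lower with DESeq2, 1 lower without a filter and 0 to 3 lower when 1 library was left out. For laparotomy in KO hosts, the 1 lower call became 0 to 1. For the difference of the effects, DESeq2 and the fit without a filter each added 1 higher, and leaving out 1 library gave 0 to 2 higher and 0 to 1 lower. For KO against WT control, DESeq2 called 2 higher and 1 lower. For KO against WT laparotomy, DESeq2 and the fit without a filter each called 1 higher and 1 lower, the compared groups alone 2 higher, and leaving out 1 library 0 to 1 higher and 0 to 1 lower. The cause of these changes was not tested.

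Over all genes, DESeq2 called 1220, 789, 1131, 782 and 534 genes in these 5 tumour comparisons in the order above and no filter gave 166, 278, 399, 196 and 152, where the fits reported called 8, 76, 99, 17 and 3. With the replicate block, the same 5 higher and 12 lower genes were counted for NET culture (6572 genes in all, against 6363), and St3gal5 stood at -2.08 (adjusted p = 0.0265) in KO hosts and -2.29 (adjusted p = 0.0334) for the difference; no call among the 37 genes changed. With 2 libraries a tumour group, a gene that missed the threshold is not shown to be unaffected, and Cers4, St8sia1, S1pr3, Sphk1 and Acer2 have standard errors of 0.77 to 1.94 for laparotomy in WT hosts.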
